A study of Saccharomyces cerevisiae with 3 samples.

Results

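The genes described here are the 34 nuclear genes for subunits of the yeast respiratory chain and ATP synthase that were named by ORF, from YBL099W (ATP1), YJR121W (ATP2) and YGL187C (COX4) to YML120C (NDI1). They were listed by gene name, with no rule on measured values, but earlier results of these data were known when they were chosen. All 34 were among the 5293 ORFs listed in all 5 tables of the study. By complex they comprise 5 subunits of the F1 head of ATP synthase, 7 of its stalk and membrane part, 8 of cytochrome c oxidase, 8 of the cytochrome bc1 complex, 4 of succinate dehydrogenase, cytochrome c (CYC1) and the internal NADH dehydrogenase NDI1. The study measured ribosome-protected fragments (footprints) and mRNA in log-phase Saccharomyces cerevisiae, with the mRNA prepared in 4 ways. The poly(A)-selected library was captured on oligo(dT) beads, the RiboMinus library was depleted of rRNA with the RiboMinus probes, and the unselected library was total RNA. These 3 libraries were made from cytoplasmic RNA of strain BY4741, a haploid laboratory strain (mating type a), grown in YPD, a rich glucose medium, to mid-log phase. The footprint values and those of RNA depleted of rRNA with RiboZero came as tables of the whole series that no sample label describes. They were identified by the names of the tables and the design text, which states that 2 samples of an earlier series were reanalysed, and their strain and growth are not labelled. They are printed as the authors' values.

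With a single library behind each table, differences could not be checked against replicates, and no p-values were computed. The values are RPKM, reads per kilobase of coding sequence and per 1e+06 reads in the listed ORFs, so levels of different genes can be set side by side per coding length. The reads in ORFs, recovered from the spacing of the low values, numbered 51462014 for footprints, 6467341 for poly(A)-selected, 1317752 for RiboMinus, 6773118 for RiboZero and 4452598 for unselected RNA. The 34 genes had 1815 to 47143 reads each in footprints, 175 to 4020 in poly(A)-selected RNA, 20 to 863 in RiboMinus RNA, 136 to 6585 in RiboZero RNA and 98 to 4321 in unselected RNA. Intervals of single genes are 95% Clopper-Pearson intervals that cover counting error only. They treat reads as independent molecules, which reads that carry no molecular identifier cannot be taken to be, so they may be too narrow. Strain and growth labels were read against marker genes. The summed level of 5 genes specific to mating type a was 4011 RPKM in footprints and 1543 to 5156 RPKM in the RNA libraries, and that of 4 alpha-specific genes was 17.8 RPKM in footprints and 24.3 to 33.8 RPKM in RNA. The 6 listed glucose-repressed genes had 0.04 to 0.94 RPKM in footprints and 0 to 15.0 RPKM across the RNA libraries, while the fermentation genes PDC1 and ADH1 had at least 16251 RPKM in footprints and 11283 RPKM in RNA.

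Oxidative phosphorylation passes electrons from NADH and succinate to oxygen and uses the proton gradient so formed to make ATP. Budding yeast has no proton-pumping complex I. Ndi1, a single-subunit enzyme on the matrix side of the inner membrane, and succinate dehydrogenase hand electrons to ubiquinone, the bc1 complex passes them to cytochrome c, and cytochrome c oxidase passes them to oxygen. Several core subunits of the bc1 complex, cytochrome c oxidase and the membrane part of ATP synthase are coded by mitochondrial DNA and were not analysed here, whereas the subunits described here are made in the cytosol and imported. Cells growing on glucose mainly ferment, and many respiratory genes are partly repressed there. The Hap2/3/4/5 complex activates respiratory genes by binding CCAAT boxes in their promoters.

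CCAAT boxes are shown because they were the feature, among those counted in the DNA next to these genes, whose share differed most from that of all listed ORFs. The letters CCAAT, on either strand (so also ATTGG), occurred between 250 bases before and 50 bases after the start codon in 29 of the 34 genes (85.3%), against 2333 of the 5293 listed ORFs (44.1%). At least 2 boxes occurred in 15 of the 34 genes (44.1%), against 580 listed ORFs (11.0%). The letters were absent from this window of ATP1, COX4, COR1, CYT1 and CYC1. For each complex or enzyme with a box, the gene with the highest footprint level among those with a box is shown. The box is the nearest before the start codon whose 12 bases on each side hold no coding base. Sequence and coordinates are from the RefSeq R64 assembly of S288C, of which sacCer3 is the same sequence, and are written 5′ to 3′ on the strand of the gene, with the box in capitals.
ATP2 (chrX:647549-647577, plus strand): gtctgttgttatCCAATttatactgaatc
ATP18 (chrXIII:104312-104340, minus strand): actcttaacgacCCAATaaggtcaaacaa
COX9 (chrIV:334527-334555, minus strand): tactgcaacctgATTGGcccgctaccacg
QCR8 (chrX:106211-106239, plus strand): attttttttaagCCAATgaaaatgaagaa
SDH3 (chrXI:179626-179654, plus strand): aaccaaaaattgCCAATcacaagctctaa
NDI1 (chrXIII:29876-29904, minus strand): gagttttaactaCCAATtgaggagtttca
The first base of the box lay 46 bases before the start codon in ATP2, 166 in ATP18, 147 in COX9, 211 in QCR8, 29 in SDH3 and 85 in NDI1. ATP18 also has a box 16 bases before its start codon, and COX9 has one at base 13 of its coding sequence. These matches describe the letters and were not tested as binding sites. The letters TGTANATA, the core recognised by Puf3, an RNA-binding protein of mRNAs for mitochondrial proteins, occurred on the sense strand within 200 bases after the stop codon in 4 of the 34 genes (11.8%; ATP1, ATP18, COX8 and SDH1), against 15.2% of the listed ORFs.

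The 34 genes were short. Their median coding length was 465 nt, against 1245 nt for all listed ORFs, and ranged between 180 nt (ATP18 and COX9) and 1923 nt (SDH1). An A stood 3 bases before the start codon in 26 genes (76.5%), against 60.6% of the listed ORFs. The genes lie on 13 chromosomes, QCR9 alone has an intron within its coding sequence, and none overlaps another listed ORF. CYC1 alone shared 30-base words with other annotated coding sequences, listed or not (1.99% of its words), so a small part of its value is uncertain. QCR6, whose acidic hinge protein sits beside cytochrome c1, stood apart in its own coding sequence. Of its 148 codons, 58 began with GA, the codons of aspartate and glutamate, and this share of 39.2% ranked 1 of 5293 ORFs, against a median of 12.3%. Codons 34 to 73 are shown because QCR6 was also the sole gene of the 34 past 1.5-fold in all 3 comparisons with unselected RNA, with no correction for coding length. The GA codons are in capitals.
QCR6 (chrVI:224551-224670, minus strand): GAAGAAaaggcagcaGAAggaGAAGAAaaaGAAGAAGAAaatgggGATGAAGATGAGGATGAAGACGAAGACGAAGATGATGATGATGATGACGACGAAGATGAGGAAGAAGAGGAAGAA
In this stretch 33 of the codons shown began with GA.

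All 34 genes lay above the median listed ORF in footprints. Their median footprint level was 236 RPKM, against 32.8 RPKM for all listed ORFs, and together they took 0.475% of the footprint reads, against 0.429% of the reads in poly(A)-selected RNA, 0.316% in RiboMinus RNA, 0.393% in RiboZero RNA and 0.393% in unselected RNA. These are averages over a culture, so a lower share of expressing cells and less RNA per cell cannot be told apart. In RiboZero RNA 31 of the 34 lay above the median ORF of 46.3 RPKM, and in unselected RNA 32 lay above 47.6 RPKM. The order of complexes by median footprint level was the F1 head (465 RPKM), cytochrome c (276 RPKM), cytochrome c oxidase (269 RPKM), the stalk and membrane part of ATP synthase (239 RPKM), the bc1 complex (129 RPKM), succinate dehydrogenase (77.5 RPKM) and Ndi1 (41.3 RPKM). In RiboZero RNA the medians were 278 RPKM for the F1 head, 202 for the stalk and membrane part, 121 for cytochrome c oxidase, 121 for cytochrome c, 119.6 for the bc1 complex, 50.1 for succinate dehydrogenase and 41.4 for Ndi1. Cytochrome c oxidase, cytochrome c and the bc1 complex had nearly the same median in RiboZero RNA, and the bc1 complex lay below the other two in footprints. Across the 34 genes footprint and RiboZero levels had a Spearman's rho of 0.855. This describes 34 genes that share the same libraries and is given with no test.

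In the F1 head, ATP1 (alpha) and ATP2 (beta, the catalytic subunit) had the highest levels of the 34 genes in RiboZero RNA. ATP1 had 560.3 RPKM in footprints, 380.2 in poly(A)-selected RNA, 282 in RiboMinus RNA, 480.2 in RiboZero RNA and 459.6 in unselected RNA. ATP2 had 488 RPKM in footprints, 303 in poly(A)-selected RNA, 427 in RiboMinus RNA, 634 in RiboZero RNA and 633 in unselected RNA. Both are present in 3 copies per complex, and ATP2 was higher than ATP1 in RNA except in the poly(A)-selected library, but lower in footprints. ATP15 (epsilon), the smallest F1 gene, had 465 RPKM in footprints, 549 in poly(A)-selected RNA, 131 in RiboMinus RNA, 278 in RiboZero RNA and 318 in unselected RNA. ATP3 (gamma, the central rotor) had the lowest F1 footprint level, with 259 RPKM in footprints, 166 in poly(A)-selected RNA, 187 in RiboMinus RNA, 204 in RiboZero RNA and 193 in unselected RNA. ATP16 (delta) had 360.1 RPKM in footprints and 248 RPKM in RiboZero RNA.

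In the stalk and membrane part, ATP18, which codes for a small membrane subunit, had the highest footprint level and varied most between RNA libraries. It had 429 RPKM in footprints, 690.1 in poly(A)-selected RNA, 85.8 in RiboMinus RNA, 220.2 in RiboZero RNA and 197 in unselected RNA. The RiboMinus value rested on 20 reads. ATP20 (subunit g, which holds ATP synthase dimers together) had the lowest footprint level, with 184 RPKM in footprints, 157 in poly(A)-selected RNA, 112 in RiboMinus RNA, 83.9 in RiboZero RNA and 85.9 in unselected RNA. ATP4 (subunit b of the peripheral stalk) had 233 RPKM in footprints, 322 in poly(A)-selected RNA, 273 in RiboMinus RNA, 205 in RiboZero RNA and 210.2 in unselected RNA. The other 4 genes lay between 220.4 and 297 RPKM in footprints. ATP17 (subunit f) had 297 RPKM in footprints and 202 RPKM in RiboZero RNA, ATP7 (subunit d) had 290.0 and 216 RPKM, ATP14 (subunit h) had 239 and 141 RPKM, and ATP5 (the oligomycin-sensitivity subunit that joins the stalk to F1) had 220.4 and 174 RPKM, in the same order of libraries.

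All 8 cytochrome c oxidase genes coded for subunits that surround the mitochondrially made core. COX9 had the highest level of the complex in every library, with 519 RPKM in footprints, 509 in poly(A)-selected RNA, 463 in RiboMinus RNA, 214 in RiboZero RNA and 255 in unselected RNA. COX4, whose product is needed for assembly of the oxidase, had the lowest footprint level, with 138 RPKM in footprints, 116 in poly(A)-selected RNA, 84.9 in RiboMinus RNA, 79.7 in RiboZero RNA and 97.6 in unselected RNA. COX7 had 278 RPKM in footprints, 283 in poly(A)-selected RNA, 131 in RiboMinus RNA, 112 in RiboZero RNA and 131 in unselected RNA, and COX13 had 280.3 RPKM in footprints, 264 in poly(A)-selected RNA, 212 in RiboMinus RNA, 165 in RiboZero RNA and 149 in unselected RNA. COX12, a subunit on the intermembrane space side, had 260.5 RPKM in footprints, 228 in poly(A)-selected RNA, 152 in RiboMinus RNA, 111 in RiboZero RNA and 96.5 in unselected RNA. COX8 had 363 RPKM in footprints and 168 RPKM in RiboZero RNA, COX6 had 226 and 131 RPKM, and COX5A, the form of subunit V made in the presence of oxygen, had 204 and 109 RPKM, in the same order of libraries. Every oxidase gene was higher in footprints than in RiboZero RNA on the RPKM scale.

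In the bc1 complex the small subunits QCR7, QCR8 and QCR9 had higher footprint levels than the core and catalytic subunits. QCR8, which lies next to cytochrome b, had 386 RPKM in footprints, 336 in poly(A)-selected RNA, 369 in RiboMinus RNA, 166 in RiboZero RNA and 196 in unselected RNA. QCR7 had 257 RPKM in footprints and 198 RPKM in RiboZero RNA, and QCR9 had 178 and 105 RPKM. The core proteins followed, with QCR2 at 129 RPKM in footprints and 123 RPKM in RiboZero RNA, and COR1 at 129 and 122 RPKM. CYT1 (cytochrome c1) had the lowest footprint level, with 67.5 RPKM in footprints, 71.2 in poly(A)-selected RNA, 39.3 in RiboMinus RNA, 65.0 in RiboZero RNA and 56.2 in unselected RNA. RIP1, the Rieske iron-sulphur protein, had 102 RPKM in footprints, 42.0 in poly(A)-selected RNA, 56.5 in RiboMinus RNA, 68.9 in RiboZero RNA and 69.6 in unselected RNA. QCR6 had 99.3 RPKM in footprints, 494 in poly(A)-selected RNA, 91.2 in RiboMinus RNA, 118 in RiboZero RNA and 194 in unselected RNA. Its poly(A)-selected value was the highest of the complex in that library, and its footprint value was the lowest but for CYT1.

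CYC1, the main cytochrome c gene of cells in oxygen, had 276 RPKM in footprints, 275 in poly(A)-selected RNA, 74.3 in RiboMinus RNA, 121 in RiboZero RNA and 114 in unselected RNA. Of the succinate dehydrogenase genes, SDH3 (a membrane anchor, whose product is also part of the TIM22 import complex) had 150.2 RPKM in footprints, 181 in poly(A)-selected RNA, 97.1 in RiboMinus RNA, 121 in RiboZero RNA and 119.9 in unselected RNA. SDH4, the other anchor, had 96.8 RPKM in footprints, 119.9 in poly(A)-selected RNA, 54.5 in RiboMinus RNA, 54.1 in RiboZero RNA and 74.0 in unselected RNA. The catalytic subunits were lower than the anchors in every library. SDH2 (the iron-sulphur subunit) had 58.2 RPKM in footprints, 39.9 in poly(A)-selected RNA, 38.0 in RiboMinus RNA, 46.1 in RiboZero RNA and 36.0 in unselected RNA, and SDH1 (the flavoprotein) had 39.5 RPKM in footprints, 37.3 in poly(A)-selected RNA, 28.1 in RiboMinus RNA, 41.9 in RiboZero RNA and 44.2 in unselected RNA. NDI1 had 41.3 RPKM in footprints, 31.4 in poly(A)-selected RNA, 45.9 in RiboMinus RNA, 41.4 in RiboZero RNA and 47.7 in unselected RNA.

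**Figure D1:**
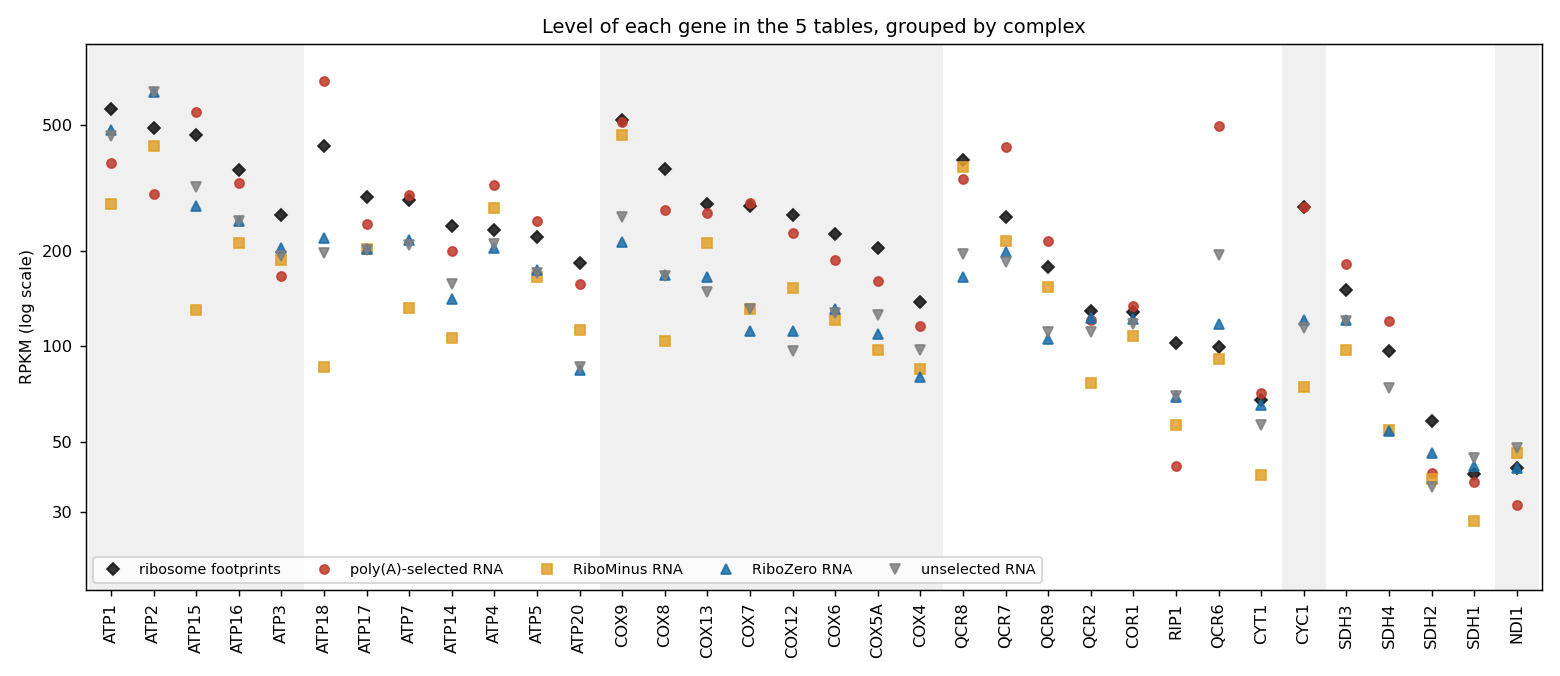
Level of each of the 34 genes in the 5 libraries (RPKM, log axis), grouped by complex and ordered within a complex by footprint level. Each point is 1 library; footprints span 39.5 RPKM (SDH1) to 560.3 RPKM (ATP1), and ATP18 and QCR6 show poly(A)-selected values far above their other RNA values.

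Footprints set against RiboZero RNA show how many ribosome-protected fragments a gene gave per unit of its mRNA. The ratio is log2 of the RPKM values after 0.5 was added to each, minus its median over 5185 ORFs whose mean over the 5 tables reached 1 RPKM, so 0 is the median ORF. The median removed was -0.40. All 34 genes passed this filter, and a gene counts as higher or lower at 1.5-fold from the median ORF, which is a rule of size. The ratio was above 0 for all 34 genes, and 32 of the counting intervals lay wholly above 0. Of the 34, 27 were higher and 0 were lower, where 22.5% of all ORFs kept were higher and 25.4% were lower. The median of the 34 was 0.96 (nominal 95% order-statistic interval over the genes 0.74 to 1.18), which is 1.94-fold. This interval and those of the medians below treat the genes as independent, which genes of the same libraries are not. They describe the spread over the 34 genes and cover no difference between libraries or cultures. The 3 ratios at the low end were those of ATP2, QCR6 and SDH1.

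The oxidase had the highest median ratio of the multi-subunit complexes against RiboZero RNA. Against poly(A)-selected RNA the F1 head stood above it, with a median of 1.21 against 0.87 for the oxidase. All 8 of its genes were higher, with a median of 1.40. They ran between 1.16 for COX13 (interval 1.02 to 1.31) and 1.71 for COX7 (1.47 to 1.98), so the lowest oxidase gene was still 2.23-fold above the median ORF. CYC1, which donates electrons to the oxidase, had a ratio of 1.59 (1.42 to 1.78). In the stalk and membrane part of ATP synthase 7 of 7 were higher, with a median of 0.95, and ran between 0.59 for ATP4 (0.50 to 0.68) and 1.53 for ATP20 (1.32 to 1.75). The ATP4 interval reached below the threshold of 0.58.

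In the F1 head 4 of 5 genes were higher, with a median of 0.74. ATP15 had the highest ratio at 1.14 (0.98 to 1.30). ATP2 was at the median ORF, with 0.022 (-0.017 to 0.059), and its partner ATP1 was at 0.62 (0.58 to 0.66). These intervals do not overlap, and ATP1 was also the higher of the pair against unselected RNA, at 0.71 for ATP1 and 0.050 for ATP2, and against RiboMinus RNA, at 1.57 and 0.78. Against poly(A)-selected RNA the order turned, with ATP1 at 1.21 (1.17 to 1.26) and ATP2 at 1.34 (1.29 to 1.40), so the direction of the difference depended on the RNA library. In the bc1 complex 4 of 8 were higher, with a median of 0.62. QCR8 had the highest ratio at 1.61 (1.45 to 1.78), followed by QCR9 at 1.16 and RIP1 at 0.96. QCR6 had the lowest, at 0.16 (-0.0064 to 0.32). CYT1, QCR2 and COR1 lay close together at 0.45, 0.47 and 0.48. Of the succinate dehydrogenase genes 3 of 4 were higher, with SDH4 at 1.23 (1.03 to 1.45) and SDH1 at 0.32 (0.19 to 0.45). NDI1 had 0.40 (0.25 to 0.55).

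**Figure D2:**
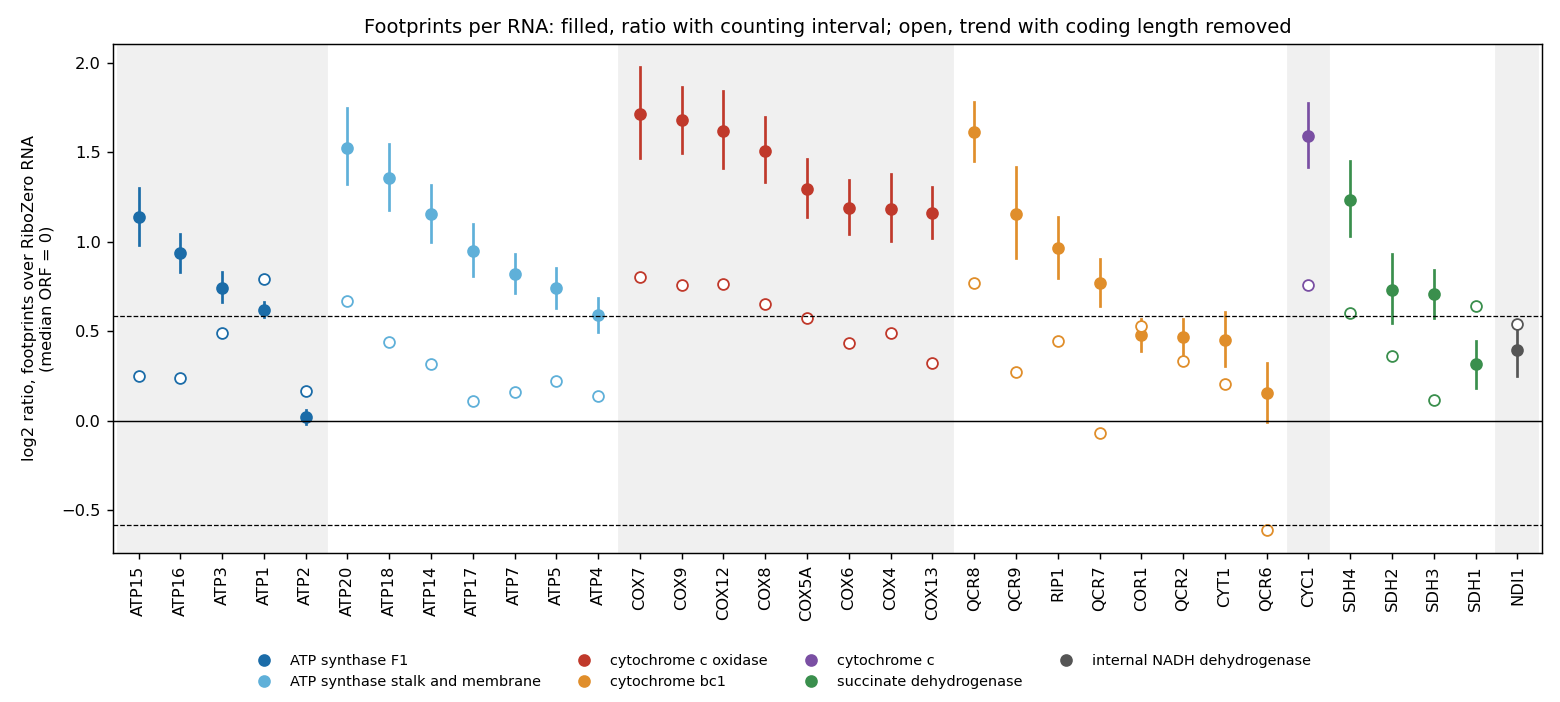
Centred log2 ratio of footprints over RiboZero RNA for each gene, by complex. Filled points are the ratio with its 95% counting interval, open points the ratio after the trend with coding length was removed, and dashed lines mark 1.5-fold; all filled points lie above 0, between 0.022 (ATP2) and 1.71 (COX7), and most open points lie closer to 0.

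Coding length moved with this ratio. Spearman's rho between length and ratio was -0.808 over the 34 genes and -0.556 over the 5185 ORFs kept, each a description across genes of the same libraries. Within each range of length the 34 genes had a higher median than all ORFs of that length. Under 300 nt the median was 1.56 for 8 genes, against 0.88 for 207 ORFs in all. Between 300 and 600 nt it was 1.16 for 14 genes, against 0.74 for 641 ORFs. Between 600 and 1200 nt it was 0.73 for 7 genes, against 0.30 for 1619 ORFs. At 1200 nt or more it was 0.40 for 5 genes, against -0.35 for 2718 ORFs. In these ranges 8, 12, 7 and 5 of the genes lay above the median of all ORFs of like length. With the trend with length removed by a running median, the median of the 34 was 0.44 (0.28 to 0.54), and 32 of the 34 lay above 0. Then 10 were higher and 1 was lower, where 12.7% of all ORFs were higher and 20.0% were lower. The 10 were COX7, COX9, COX12, COX8, ATP1, QCR8, CYC1, ATP20, SDH1 and SDH4. QCR6 was the gene that was lower, at -0.61, and QCR7 lay at -0.069. By complex the median was then 0.61 in the oxidase (4 of 8 higher) and 0.48 in succinate dehydrogenase (2 of 4). It was 0.30 in the bc1 complex (1 of 8), 0.25 in the F1 head (1 of 5) and 0.22 in the stalk and membrane part (1 of 7).

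**Figure D3:**
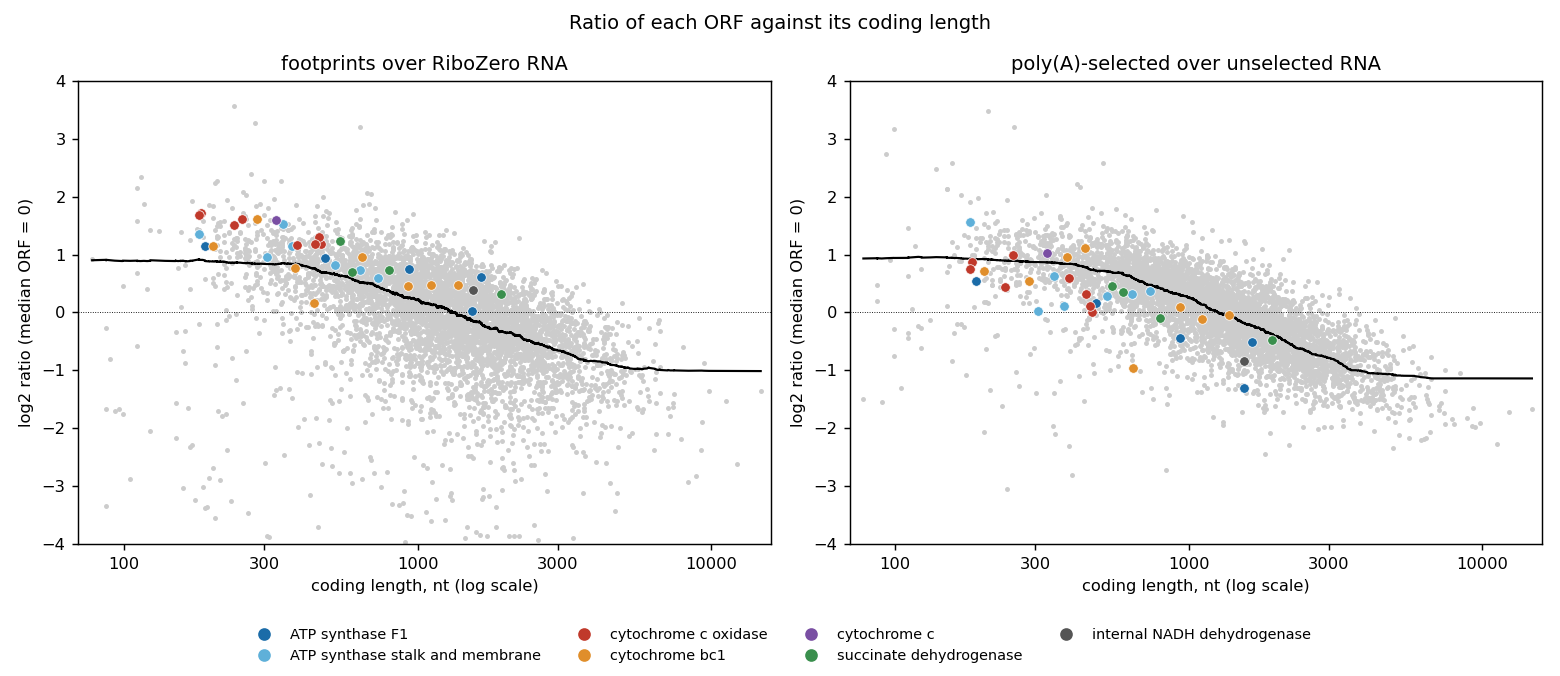
Centred log2 ratio against coding length (log axis) for footprints over RiboZero RNA on the left and poly(A)-selected over unselected RNA on the right. Grey points are all 5185 ORFs kept, the line is their running median and coloured points are the 34 genes; 32 ORFs on the left and 2 on the right lie outside the axis limits of 4 log2 units. The coloured points lie mostly above the line on the left and mostly below it on the right.

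The ratio also depended on which RNA library stood below the footprints. Against unselected RNA the median of the 34 was 0.97, against poly(A)-selected RNA it was 0.74, and against RiboMinus RNA it was 1.29. With the trend with length removed these medians were 0.44, 0.76 and 0.75 in the same order. Spearman's rho between length and ratio over the 34 genes was -0.797, 0.281 and -0.283, again in that order. These comparisons share the footprint library. QCR6 had the lowest ratio against unselected and poly(A)-selected RNA, -0.53 and -1.66 in that order.

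Subunits of a complex are assembled in fixed ratios, so their levels were compared per copy in the complex, with 3 copies of ATP1 and ATP2 and 1 of every other subunit. In the F1 head footprints per copy were 465 RPKM for ATP15, 360.1 for ATP16, 259 for ATP3, 187 for ATP1 and 163 for ATP2, a range of 2.86-fold. In RiboZero RNA the F1 range was 1.74-fold, with 278 RPKM per copy for ATP15, 248 for ATP16, 211 for ATP2, 204 for ATP3 and 160.1 for ATP1. The SD of log2 level per copy in the F1 head was accordingly 0.63 in footprints and 0.30 in RiboZero RNA. In the stalk and membrane part the SD was 0.39 in footprints and 0.50 in RiboZero RNA, and the range 2.33-fold and 2.63-fold. There ATP20 had 184 RPKM in footprints, against 220.4 to 429 RPKM for the other 6, and lay further below them in RiboZero RNA, at 83.9 RPKM against 141 to 220.2 RPKM. In cytochrome c oxidase the SD was 0.57 in footprints and 0.45 in RiboZero RNA, with ranges of 3.77-fold and 2.68-fold. In the bc1 complex it was 0.81 and 0.55, with ranges of 5.72-fold and 3.05-fold. In succinate dehydrogenase it was 0.84 and 0.70, with ranges of 3.80-fold and 2.89-fold. The stalk and membrane part thus had a lower spread in footprints than in RiboZero RNA, and the other 4 had a higher one. This order depended on the RNA library. In poly(A)-selected RNA the SD was above that of footprints in all 5, at 1.01 in the F1 head, 0.68 in the stalk and membrane part, 0.64 in the oxidase, 1.27 in the bc1 complex and 1.14 in succinate dehydrogenase. In RiboMinus RNA it was above in the stalk and membrane part (0.58), the oxidase (0.79) and the bc1 complex (1.05), and below in the F1 head (0.46) and succinate dehydrogenase (0.77). In unselected RNA the order was as in RiboZero RNA in each, with 0.39 in the F1 head, 0.46 in the stalk and membrane part, 0.45 in the oxidase, 0.68 in the bc1 complex and 0.78 in succinate dehydrogenase. Between footprints and RiboZero RNA the order also turned with the processing. With the scaled median absolute deviation in place of the SD, the stalk and membrane part had 0.42 in footprints and 0.18 in RiboZero RNA. Without division by copies the F1 head had 0.44 in footprints and 0.69 in RiboZero RNA. Over oxidase subunits of at least 300 nt the SD was 0.43 in footprints and 0.44 in RiboZero RNA. No test of these differences was made, since each library is 1 sample and the subunits number 4 to 8.

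In 4 of the 5 multi-subunit parts the gene with the highest footprint level per copy was under 300 nt long. These were ATP15, ATP18, COX9 and QCR8, while SDH3, the top gene of succinate dehydrogenase, had 597 nt. In the bc1 complex the median footprint level was 217 RPKM for QCR6 to QCR9 and 115 RPKM for the core and catalytic subunits COR1, QCR2, CYT1 and RIP1. In RiboZero RNA the medians were 142 RPKM and 95.3 RPKM in the same order.

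**Figure D4:**
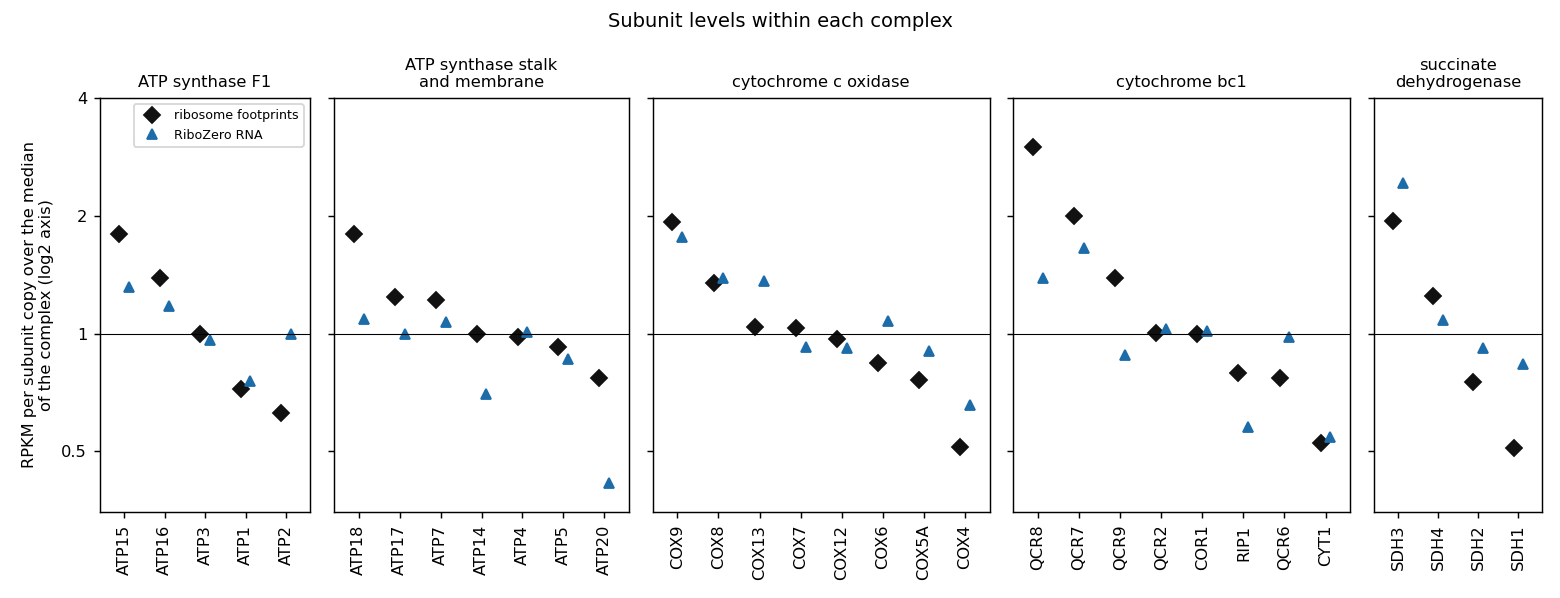
Level per subunit copy divided by the median of its complex (log2 axis) for footprints and RiboZero RNA, with subunits ordered by footprint level. Each point is 1 gene in 1 library; the widest spread in footprints on the fold scale is that of the bc1 complex (5.72-fold) and the narrowest that of the stalk and membrane part of ATP synthase (2.33-fold).

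The 3 other RNA preparations were each set against unselected RNA, which these comparisons share. After poly(A) selection the 34 genes had a median ratio of 0.32 (0.10 to 0.54). Of the 34, 10 were higher and 3 were lower, where 20.3% of all ORFs were higher and 21.3% were lower. The median removed was 0.24. The highest were ATP18 at 1.57 (1.32 to 1.83), QCR6 at 1.11 (0.95 to 1.28) and CYC1 at 1.03 (0.78 to 1.29). The lower genes were ATP2 at -1.30 (-1.37 to -1.23), RIP1 at -0.96 (-1.27 to -0.67) and NDI1 at -0.83 (-1.07 to -0.61). ATP2 was thus 2.46-fold lower, and ATP18 of the same enzyme 2.97-fold higher, in poly(A)-selected than in unselected RNA. Length moved with this ratio as well, with a Spearman's rho of -0.809 over the 34 genes and -0.759 over all ORFs kept. With the trend with length removed the direction of the median turned. It was then -0.29 (-0.45 to -0.21), with 29 of 34 genes below 0, 1 higher and 8 lower, where 6.85% of all ORFs were higher and 9.45% were lower. ATP18 stayed higher at 0.65, and RIP1, at -1.55, ATP2, at -1.12, and NDI1, at -0.65, stayed lower.

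In RiboMinus RNA the median ratio of the 34 genes was -0.29 (-0.59 to -0.11). Of the 34, 2 were higher and 12 were lower, where 14.6% of all ORFs were higher and 16.0% were lower. The higher genes were QCR8 at 0.83 (0.52 to 1.14) and COX9 at 0.78 (0.43 to 1.13), and COX12 followed at 0.58 (0.068 to 1.08). The lowest were ATP15 at -1.36 (-1.94 to -0.83), ATP18 at -1.27 (-2.02 to -0.60) and QCR6 at -1.16 (-1.60 to -0.74). These 3 rested on 32, 20 and 53 reads in the RiboMinus library, which was the shallowest. Counting error left 13 of the 34 genes with an interval that held 0. The large F1 genes had narrower intervals, with ATP1 at -0.78 (-0.91 to -0.66) and ATP2 at -0.64 (-0.75 to -0.54). In the stalk and membrane part 0 of 7 genes were higher and 3 were lower, and of the oxidase genes 1 was higher and 1, COX8, was lower.

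RiboZero RNA was the preparation closest to unselected RNA. The median ratio of the 34 genes was 0.012 (-0.068 to 0.055). Of the 34, 0 were higher and 1 was lower, where 1.08% of all ORFs were higher and 2.31% were lower, and 28 of the 34 intervals held 0. The lower gene was QCR6, at -0.71 (-0.92 to -0.50), which is 1.63-fold. It was followed by SDH4 at -0.44 (-0.74 to -0.14) and COX4 at -0.28 (-0.56 to -0.0089). The highest were SDH2 at 0.36 (0.05 to 0.68), CYT1 at 0.22 (-0.018 to 0.46) and COX12 at 0.22 (-0.13 to 0.57). QCR6, whose GA-rich stretch is printed above, was thus lower in both rRNA-depleted libraries and higher in the poly(A)-selected library than in unselected RNA. With the trend with length removed QCR6 was within 1.5-fold after poly(A) selection, at 0.33. It stayed lower in RiboMinus RNA, at -1.06, and in RiboZero RNA, at -0.74. Whether its sequence has a part in this was not tested.

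**Figure D5:**
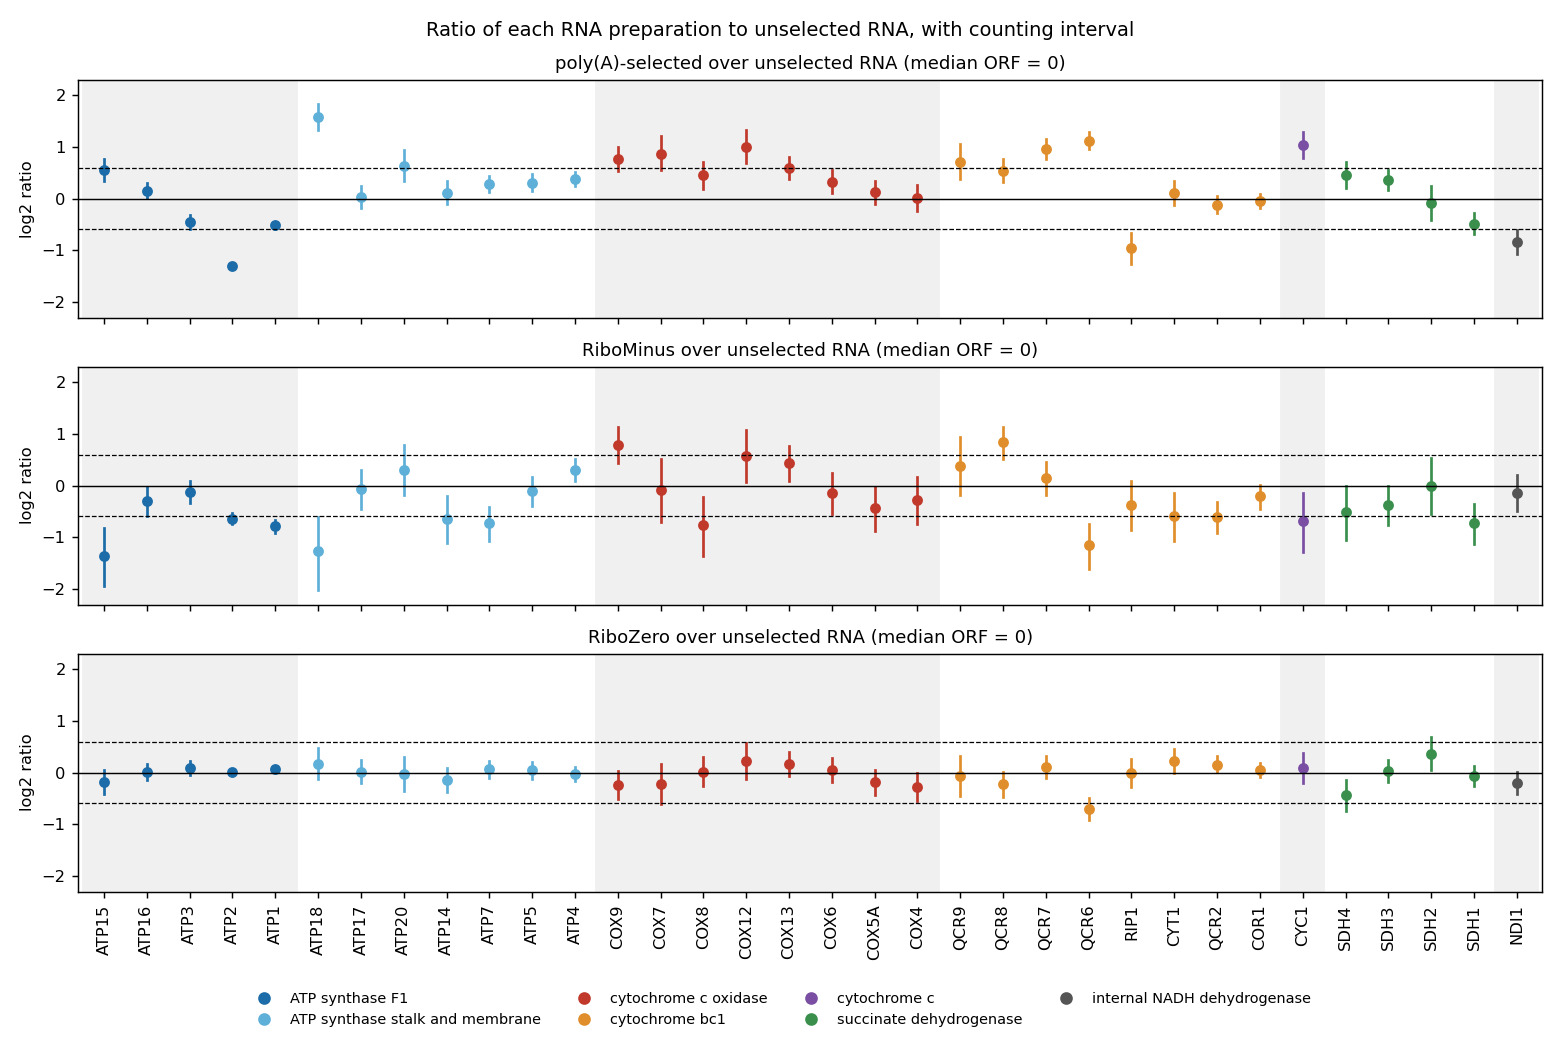
Centred log2 ratio of poly(A)-selected, RiboMinus and RiboZero RNA over unselected RNA for each gene, by complex and ordered within a complex by coding length. Points carry 95% counting intervals and dashed lines mark 1.5-fold; in the RiboZero panel QCR6, at -0.71, is the sole point beyond a dashed line, and in the poly(A)-selected panel ratios run between -1.30 (ATP2) and 1.57 (ATP18).

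Of 70 other names of the pathway, 66 were listed. CYC7, YJL045W, COX15 and HAP1 were not analysed here. Footprints were again set against RiboZero RNA, with the same background of 22.5% higher and 25.4% lower. Of 12 further subunits, isoforms and regulators, 7 were higher and 2 were lower, with a median of 1.04. Small subunits and regulators of ATP synthase were among the higher ones, with TIM11 (subunit e) at 1.88, the inhibitor of its ATPase activity INH1 at 1.66 and ATP19 at 1.49, and so was QCR10 of the bc1 complex at 1.81. Their footprint levels were 206 RPKM for TIM11, 105 RPKM for INH1, 329 RPKM for ATP19 and 204 RPKM for QCR10. The lower ones were SHH3 at -1.44 (interval -4.75 to -1.22) and SHH4 at -2.34 (-3.76 to -2.08). Both rested on few reads, 6 in footprints and 8 in RiboZero RNA for SHH3, and 23 and 30 for SHH4. At such levels the added 0.5 weighs on the ratio. With the trend with length removed the median of the 12 was 0.46.

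Assembly factors lay on both sides of the median ORF. Their median level was 38.0 RPKM in footprints, against 236 RPKM for the 34 subunit genes, and 32.5 RPKM in RiboZero RNA. Of 40 listed, 16 were higher and 10 were lower, with a median of 0.40 that became -0.12 once the trend with length was removed. The copper carrier gene COX17 had 332 RPKM in footprints, 151 RPKM in RiboZero RNA and a ratio of 1.54. The 4 lowest ratios were those of translational activators of mitochondrial mRNAs, with PET111 at 2.48 RPKM in footprints and 21.5 RPKM in RiboZero RNA, a ratio of -2.48, ATP22 at -1.76, PET309 at -1.66 and PET122 at -1.66. Other activators below the median ORF were PET54 at -1.06, CBS1 at -0.78, PET494 at -0.66 and CBS2 at -0.60, and MSS51 lay within 1.5-fold at -0.18. Not all activators lay low, since CBP6 was higher at 0.79 and CBP3 lay within 1.5-fold at 0.33. Of the 9 genes of ubiquinone synthesis 0 were higher and 1, COQ6 at -0.73, was lower, with a median of -0.025. Of the DNA-binding subunits of the Hap complex, HAP2 and HAP3 were higher, each at 0.91, and HAP5 lay at 0.092, while the glucose-repressed activating subunit HAP4 lay at -0.41. HAP4 had 16.6 RPKM in footprints and 29.5 RPKM in RiboZero RNA. PUF3 had a ratio of -0.33. With the trend with length removed all of these lay within 1.5-fold. HAP2 was then at 0.53, HAP3 at 0.14, HAP5 at -0.36, HAP4 at -0.19 and PUF3 at 0.22.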

How the data were processed

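The authors deposited RPKM values, 5 tables of 1 library each. The submitters' processing notes name Bowtie2, TopHat2 and sacCer3. What each was used for, how reads were counted or filtered, and with which annotation is not stated there. From the values it was inferred that RPKM are scaled to the coding length less the stop codon and to 1e+06 reads in listed ORFs. Low values were whole multiples of 1 read: between 99.6% and 100% of values under 100 reads lay within 0.1 read of a whole number, which gave the depths. The footprint and RiboZero tables have no sample label and their columns are the authors' values.

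ORF names were matched to the RefSeq R64 annotation, 203 after a hyphen was restored, and 5293 ORFs were in all tables. With 1 library per preparation no count test was run. Ratios were log2(RPKM + 0.5), centred on the median of 5185 ORFs whose mean reached 1 RPKM (108 removed); adding 0.5 understates differences of low genes. Intervals are exact Clopper-Pearson intervals of a gene's share of the reads of both libraries. The length trend was a running median over 10% of ORFs. Sequence windows were cut from the R64 genome around the start and stop codons, in place of a promoter table.

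The 34 genes and all lists were chosen with earlier results of these data known. Every gene of the 34 is named with its level; values in all libraries are given for the highest and lowest gene of each complex by footprints and by footprints per RNA, and for the 3 highest and 3 lowest of each other ratio. Pathway genes outside the 34 named in the text were chosen after their values were seen. The scripts were tested on simulated data with known ratios. Settings varied were the pseudocount (0.1 and 2), the filter (none, and a mean of 10 RPKM), no centring, the length trend removed, 2-fold, another RNA library, 1.4826 times the median absolute deviation, no division by copies, and subunits of at least 300 nt. Python 3.11.15, pandas 2.3.3, NumPy 2.4.6, SciPy 1.17.1 and matplotlib 3.10.9 were used.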

Additional observations from a re-analysis of the deposited data

How the results depend on the processing

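Of 119 values recomputed for 22 results, 99 stayed within the spread of the value reported and 20 moved; the cause was not tested. Among those that moved, the median for poly(A)-selected against unselected RNA, which is under 1.5-fold, changed sign. For footprints against RiboZero RNA the median of the 34 genes was 0.56 with no centring, 0.44 with the length trend removed and 1.29 with RiboMinus RNA below. The higher genes numbered 16 with no centring, 10 with the length trend removed and 16 at 2-fold. The lower genes numbered 1 with the length trend removed and 1 with poly(A)-selected RNA below. For poly(A)-selected against unselected RNA the median was 0.55 with no centring and -0.29 with the length trend removed. The higher genes numbered 16 with no centring, 1 with the length trend removed and 3 at 2-fold, and the lower genes 8 with the length trend removed and 1 at 2-fold. At 2-fold RiboMinus against unselected RNA had 0 higher and 3 lower genes, and RiboZero against unselected RNA had 0 lower genes. Shares of all ORFs were not worked out with no centring, at 2-fold or with another RNA library below. The counts at those settings are therefore not set against a background. With the median absolute deviation the RiboZero spread was 0.18 in the stalk and membrane part of ATP synthase, below that of its footprints, and 0.27 in succinate dehydrogenase. Values counted among the 99 could still turn an order. Without division by copies the SD of the F1 head went from 0.63 to 0.44 in footprints and from 0.30 to 0.69 in RiboZero RNA.

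Each preparation was 1 library, so culture, library and preparation cannot be told apart. No paired analysis was possible because no preparation had a further replicate. The footprint and RiboZero libraries carry no label of strain or growth, so a difference between cultures cannot be told apart from one between footprints and the 3 labelled RNA libraries. The RiboMinus library limits single genes most, with 20 reads for the gene with fewest. RPKM are relative to the reads in listed ORFs and show no absolute amounts. The spread over subunits of at least 300 nt was not run where fewer than 3 subunits remained.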

Other observations

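Genes with an isoform differed in how the pair stood in footprints and in RNA. COX5A, made in oxygen, had 204 RPKM in footprints, against 95.6 RPKM for COX5B, which is known as the form made when oxygen is low, a ratio of 2.14. In RiboZero RNA the pair had 109 RPKM for COX5A and 108 RPKM for COX5B, a ratio of 1.01, and in unselected RNA the ratio was 1.32. In poly(A)-selected RNA and in RiboMinus RNA COX5B was the higher of the pair, with COX5A over COX5B at 0.80 and 0.65. Both coding sequences have nearly the same length, 462 nt for COX5A and 456 nt for COX5B.

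NDI1 was lower than NDE1, which oxidises NADH on the outer side of the inner membrane, in every library, at 41.3 RPKM for NDI1 against 131 RPKM for NDE1 in footprints and 41.4 RPKM against 162 RPKM in RiboZero RNA. Their ratio lay between 0.26 and 0.32 across the 5 libraries. The other external enzyme, NDE2, was at most 1.51 RPKM in any library. The homologs of the succinate dehydrogenase anchors were low. SHH3 had 0.20 RPKM in footprints and 2.01 RPKM in RiboZero RNA, where SDH3 had 150.2 and 121 RPKM. SHH4 had 0.89 RPKM in footprints but 8.79 RPKM in RiboZero RNA and 27.9 RPKM in poly(A)-selected RNA.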
